A study of Homo sapiens with 3 samples.

Results

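The genes described here encode the nuclear lamins and the proteins that tie them to the inner nuclear membrane and to chromatin. They were chosen by name: LMNB1, LMNB2, LMNA, LBR, EMD, TMPO, SUN1, SUN2, BANF1 and LEMD3, taking every probe whose single gene symbol in the platform annotation is one of these. Of the 10 genes, 8 had a probe with a value, and EMD and SUN2 were not analysed here. The 8 genes had 13 probes among 22472 probes with a single symbol, and 10 of the 13 had values on all 3 arrays. All 8 genes entered the table of 9394 genes that rest on probes with values on all 3 arrays. LMNB1 was picked out because its mean was among the lowest of this same comparison, and the other genes were set beside it with those results known. The members' values are therefore given as a description, with no p-value. Whether a member passed the fit over all genes is stated only beside the share of all genes that did, and supports nothing.

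BEAS-2B is an immortalised cell line of human bronchial epithelium. Cells were treated with MTX, named here as the labels name it, at 0.144 µM for 48 h, after an incubation of 24 h. This dose was described as giving 20% inhibition. On each of 3 two-colour arrays, RNA of MTX-treated cells carried Cy5 and RNA of cells given DMSO, the vehicle, carried Cy3. No array had the dyes exchanged, so a dye effect of single genes is part of every value. Whether each array had its own culture is not in the labels. The p-values then test a mean log ratio against 0 relative to the spread of these 3 samples alone, which may be technical. A dye effect counts as part of that mean.

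Each value is a log ratio of MTX over DMSO in the deposited units, and a positive one is read as higher with MTX from the labelled dyes, which makes the direction likely rather than settled. No source gives the base of the logarithm. Folds are given on the base 10 reading, and the base 2 reading stands beside the one of LMNB1. Values were present for 21224, 25272 and 25927 probes on arrays 1, 2 and 3. Array 3 stood apart, with correlations across genes of 0.521 and 0.588 with arrays 1 and 2, against 0.840 between those. Spots 215 places apart in the numbering were correlated at 0.245, 0.293 and 0.192 on the 3 arrays, the highest of the spacings tried. They were therefore taken as neighbours on the slide, a layout inferred from these values. The local mean around a spot is given where it touches a result. Of 8 bronchial epithelial markers 4 were measured (KRT8, KRT18, KRT19 and EPCAM), with array medians between -0.0215 and 0.00888. They went both ways, with EPCAM higher at 0.278 ± 0.0982 and KRT18 lower at -0.159 ± 0.0328 (SD, n = 3, limma adjusted p = 0.0158 and 0.0150), while KRT8 and KRT19 averaged 0.0861 and -0.107 and did not pass. Of 5 fibroblast and 5 immune markers 2 and 1 were measured, with array medians of -0.0355 to 0.0786 and of -0.106 to -0.0180, and of 3 endothelial markers none. Ratios do not show how much RNA of a gene was present, so the cell type itself could not be checked against these markers, and their part in the results was not tested.

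The nuclear lamina is a meshwork of intermediate filament proteins under the inner nuclear membrane. B-type lamins, encoded by LMNB1 and LMNB2, stay farnesylated and membrane-bound, whereas LMNA gives lamins A and C by alternative splicing. Membrane proteins such as LBR, LEMD3 and the membrane-bound products of TMPO hold lamins and chromatin to the membrane. SUN1 reaches into the perinuclear space as part of the bridge to the cytoskeleton, and the small protein made from BANF1 bridges DNA and proteins with a LEM domain. Loss of lamin B1 is widely used as a marker of cellular senescence.

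Upstream sequences are shown for the 3 genes with the lowest means, LMNB1, LMNA and BANF1, and for TMPO, whose probes disagreed. Each is the 250 bases before a RefSeq start on GRCh38.p14, read 5′ to 3′ on the gene's strand, which is the plus strand in all 4. Capitals mark matches, on either strand, to an E2F motif (TTTCCCGC, TTTGGCGC or TTTCGCGC), to the NF-Y motif CCAAT or to the cell cycle element CHR, TTTGAA. Matches to the GC box GGGCGG were counted but left in lower case.
LMNB1, the second of 2 starts, chr5:126776886-126777135: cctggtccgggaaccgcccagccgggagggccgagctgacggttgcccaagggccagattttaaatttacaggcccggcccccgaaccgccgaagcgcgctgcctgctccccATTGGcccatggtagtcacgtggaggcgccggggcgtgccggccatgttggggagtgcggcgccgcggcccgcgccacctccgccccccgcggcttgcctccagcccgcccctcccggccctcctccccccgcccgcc
LMNA, the first of 3 starts, chr1:156082323-156082572: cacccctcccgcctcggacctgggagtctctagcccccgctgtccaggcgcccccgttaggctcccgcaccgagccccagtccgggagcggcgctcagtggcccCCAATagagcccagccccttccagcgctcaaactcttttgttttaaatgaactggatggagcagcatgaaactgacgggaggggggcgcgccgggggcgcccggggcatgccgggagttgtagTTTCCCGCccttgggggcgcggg
BANF1, its single start, chr11:66002253-66002502: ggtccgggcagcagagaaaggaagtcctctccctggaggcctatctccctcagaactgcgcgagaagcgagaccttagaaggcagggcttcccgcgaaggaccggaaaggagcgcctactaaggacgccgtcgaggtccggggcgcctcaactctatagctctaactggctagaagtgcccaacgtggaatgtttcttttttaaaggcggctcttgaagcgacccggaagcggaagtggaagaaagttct
TMPO, the second of 2 starts that overlap, chr12:98515340-98515589: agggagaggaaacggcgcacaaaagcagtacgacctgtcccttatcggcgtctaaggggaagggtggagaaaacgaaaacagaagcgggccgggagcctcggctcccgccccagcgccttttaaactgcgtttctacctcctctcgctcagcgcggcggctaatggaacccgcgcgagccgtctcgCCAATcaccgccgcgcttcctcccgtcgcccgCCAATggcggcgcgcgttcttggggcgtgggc

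These stretches did not share a motif across the 3 lowest genes. LMNB1 had 1 CCAAT match, beginning 138 bases before this start, and 4 GC boxes, and no motif match at its other start. LMNA had TTTCCCGC beginning 23 bases before the start shown, overlapped by its 1 GC box, and CCAAT beginning 146 bases before that start. Its other starts had GC boxes, 1 and 2 of them, but no E2F, CCAAT or CHR match. BANF1 held none of these letters. TMPO had 2 CCAAT matches and 1 GC box. Among the 11 starts of the 7 genes that matched the table, an E2F motif was found upstream of 2, in LMNA and LEMD3, against 2.32% of all 35116 starts. CCAAT was found upstream of 5, of which the overlapping TMPO starts share theirs, against 32.0%, and CHR upstream of 1, that of LMNB2, against 13.3%. The GC box was found upstream of 8, in 5 genes, against 42.6%, and the TMPO starts share theirs again. Of the 11 stretches, 8 had more G and C than the 58% median of all starts, and these shares were not adjusted for that. A match is a description of the letters and does not show a bound site.

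The question of the comparison was which genes MTX changes in bronchial cells, with DMSO as the vehicle. Within the lamins and their partners the values were uneven: LMNB1, BANF1 and LMNA lay below 0 on every array, SUN1 and LBR above 0 on every array, and LMNB2, TMPO and LEMD3 on both sides. In the fit over all genes 4 of the 8 passed, LMNB1, BANF1 and LMNA lower and SUN1 higher, where 29.0% of all genes passed (limma adjusted p under 0.05). By direction 12.4% of all genes passed as lower and 16.6% as higher. Without array 1 or without array 2 no gene of the table passed by limma, although 2938 and 2387 had an unadjusted p under 0.05, and without array 3 the number passing was 4287, against 2726 with all arrays. Since the genes were chosen on this contrast, nothing is read from their count. The median of the 8 means was -0.0193, against 0.00742 over all genes. In bulk RNA, fewer cells of a type and less RNA per cell cannot be told apart.

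**Figure D1:**
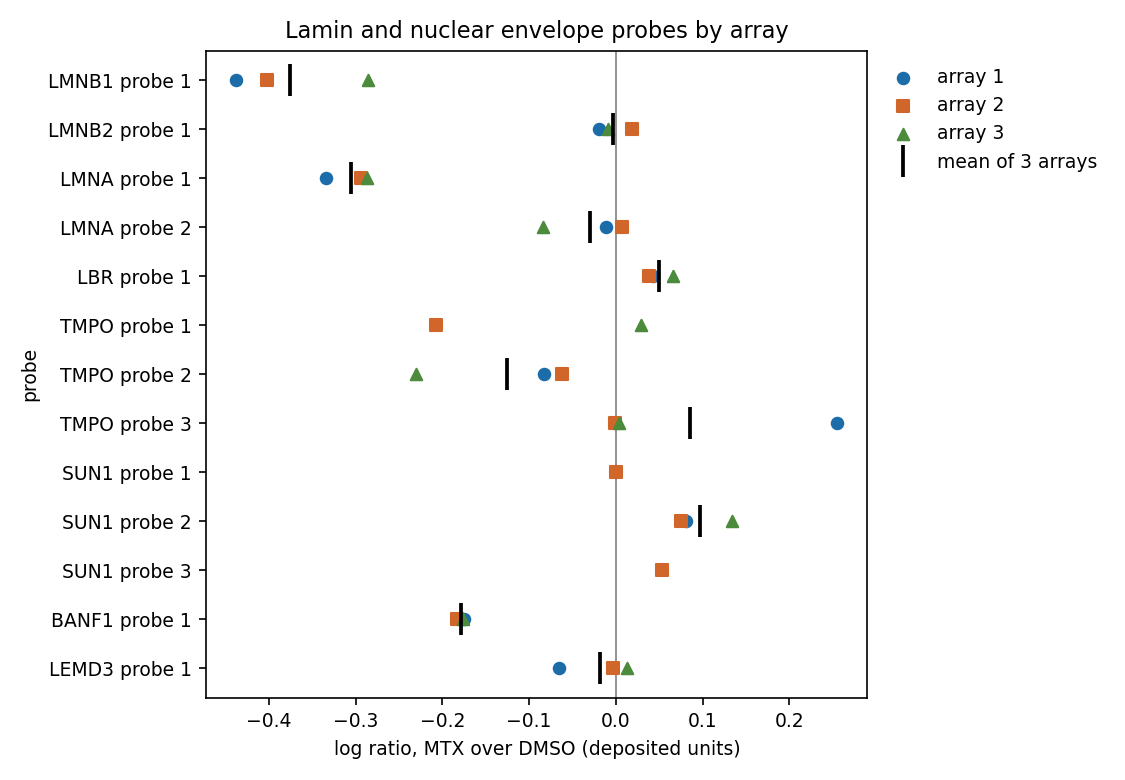
Log ratio of MTX over DMSO, in deposited units, for the 13 probes of the 8 genes, with 1 point per array and a bar at the mean where all 3 arrays gave a value. The 3 points of LMNB1, of the upper LMNA probe and of BANF1 lie left of 0, while the lower LMNA probe and TMPO probe 3 lie near 0 on 2 arrays each.

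LMNB1, which encodes lamin B1, had 1 probe, with log ratios of -0.437, -0.402 and -0.286 on arrays 1, 2 and 3. All 3 arrays read it lower with MTX, and array 3 was nearest to 0. Its mean was -0.375 ± 0.0795 (SD, n = 3), or 2.37-fold lower on the base 10 reading and 1.30-fold lower on the base 2 reading. It was the seventh lowest mean of 9394 genes (rank 7), and it ranked 20, 32 and 84 from the lowest on the single arrays. Its SD was larger than that of 79.8% of genes. The spots around the LMNB1 probe averaged -0.0131, 0.0269 and 0.0732 on the 3 arrays, highest on array 3. With this local mean removed the values were -0.424, -0.429 and -0.359, with a mean of -0.404, so the reading was as low without the local mean and its 3 arrays lay closer together.

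LMNB2, the gene of lamin B2, did not share the low reading of LMNB1. Its probe gave -0.0198, 0.0189 and -0.00861, a mean of -0.00315 ± 0.0199 (SD, n = 3) in the middle of all genes. The difference LMNB1 minus LMNB2 was -0.418, -0.421 and -0.277 on the 3 arrays. The surroundings of the LMNB2 probe read high, by 0.0779 on average, and with the local mean removed LMNB2 averaged -0.0811, with -0.0825, -0.122 and -0.0388 on the arrays. Its place at 0 thus depended on that choice, while it stayed above LMNB1 either way.

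LMNA, the gene of lamins A and C, was read by 2 probes that carry the same transcript accession and disagreed. The first gave -0.334, -0.294 and -0.287, a mean of -0.305 ± 0.0252 (SD, n = 3), or 2.02-fold lower on the base 10 reading. The second gave -0.0111, 0.00724 and -0.0842, a mean of -0.0294 ± 0.0484. The first probe lay below the second on every array, and the ranges did not overlap. The gap of 0.275 between the probe means was matched or exceeded by 4.51% of the 1862 genes with 2 such probes, whose median gap was 0.0808, and by 4.11% of the 1459 pairs that share an accession. With the local mean removed the probes averaged -0.283 and -0.00319, so the gap was about as wide. Averaged over both probes, LMNA had -0.172, -0.143 and -0.186 and a mean of -0.167 ± 0.0215, or 1.47-fold lower, a value that neither probe showed. The difference LMNB1 minus LMNA was -0.265, -0.259 and -0.100, and LMNA minus LMNB2 was -0.153, -0.162 and -0.177. Against the first LMNA probe alone, LMNB1 was lower on arrays 1 and 2 and level with it on array 3, at -0.286 against -0.287.

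**Figure D2:**
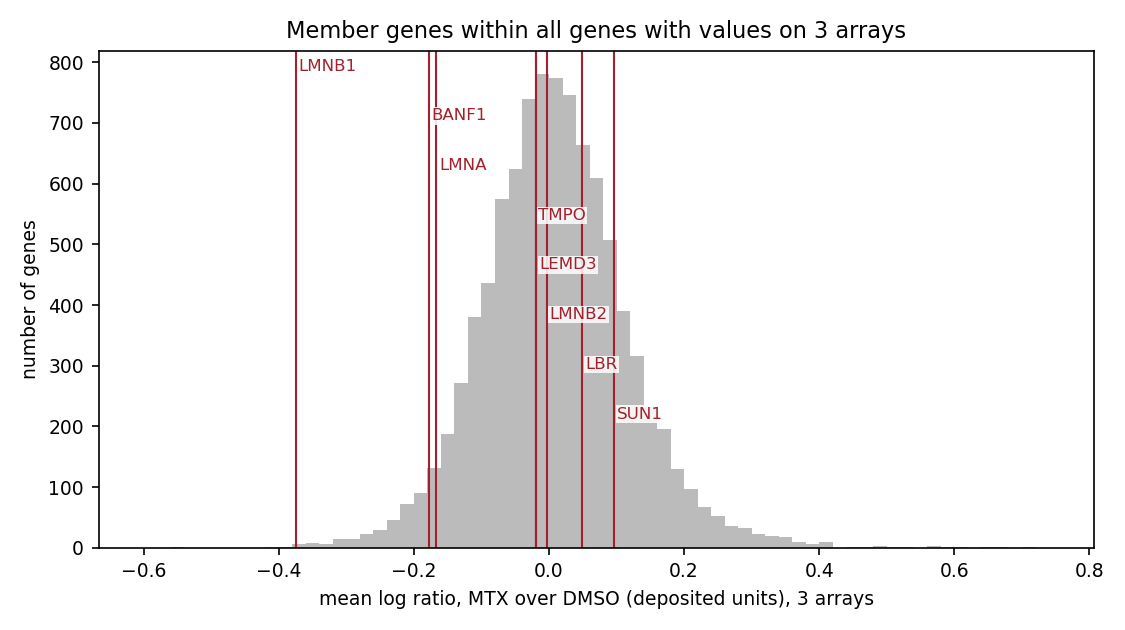
Histogram of the mean log ratio over 3 arrays of all 9394 genes, with a vertical line for each of the 8 lamin and envelope genes. LMNB1 lies in the far left tail at -0.375, BANF1 and LMNA on the left flank at -0.178 and -0.167, and the other 5 within the bulk, up to 0.0966 for SUN1.

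BANF1 encodes the barrier-to-autointegration factor, a small DNA-binding protein that gathers chromatin and draws membrane to it when the nucleus re-forms after mitosis. Its probe gave -0.175, -0.184 and -0.176, the most even of the 8 genes. The mean was -0.178 ± 0.00489 (SD, n = 3), or 1.51-fold lower on the base 10 reading, and only 1.19% of genes had a smaller SD. The spots around it read low as well, by -0.0398 on average, and without that local mean BANF1 averaged -0.138. The 3 arrays stayed below 0, at -0.164, -0.121 and -0.130, and were less even than before.

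Among the LEM domain proteins that BANF1 binds, LEMD3 and TMPO were measured. LEMD3, the inner membrane protein MAN1 that dampens SMAD signalling, had -0.0658, -0.00372 and 0.0130, a mean of -0.0188 ± 0.0415 (SD, n = 3). Its surroundings on the slide read low, by -0.0677, and with the local mean removed LEMD3 averaged 0.0489, so its sign was not stable. BANF1 minus LEMD3 was -0.109, -0.180 and -0.189 on the 3 arrays.

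TMPO, whose splice forms are the lamina-associated polypeptides 2, had 3 probes with 3 different accessions, and which splice form each reads was not determined here. Probe 1 had values on arrays 2 and 3 alone, -0.208 and 0.0294, and did not enter the gene mean. Probe 2 gave -0.0828, -0.0622 and -0.231, a mean of -0.125 ± 0.0919 (SD, n = 3). Probe 3 gave 0.255, -0.00132 and 0.00362, a mean of 0.0858 ± 0.147. Probe 2 was low on every array, most on array 3, and probe 3 was high on array 1 and at 0 on the others. The gap of 0.211 between the means of probes 2 and 3 was matched or exceeded by 11.3% of genes with 2 such probes. The gene mean of -0.0197 ± 0.100 joins these, with 0.0862, -0.0318 and -0.114 on the arrays, a spread larger than that of 87.6% of genes. No direction can be given for TMPO: it averaged -0.125 on its first complete probe and 0.0243 with the local mean removed.

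LBR, the lamin B receptor, is an inner membrane protein that binds B-type lamins and heterochromatin and also has sterol reductase activity. Its single probe gave 0.0433, 0.0387 and 0.0663, a mean of 0.0494 ± 0.0148 (SD, n = 3). The 3 values were close to each other and slightly above 0, and LBR did not pass in the fit over all genes, though it did with array weights. The difference LMNB1 minus LBR was -0.481, -0.441 and -0.352, the widest of the 7 differences between members computed here. Removing the local mean brought LBR to 0.0290.

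SUN1, an inner membrane protein of the bridge between lamina and cytoskeleton, was the member with the highest mean. The probe with values on all arrays gave 0.0806, 0.0750 and 0.134, a mean of 0.0966 ± 0.0327 (SD, n = 3), or 1.25-fold higher on the base 10 reading. Of all genes 18.5% had a higher mean. The other probes were measured on array 2 alone, at 0.000499 and 0.0535, and 1 of them carries the same accession as the probe used. On array 2, then, all 3 probes lay between 0 and the 0.0750 of the probe used. With the local mean removed SUN1 averaged 0.0904, with 0.0431, 0.0452 and 0.183 on the arrays, and it no longer passed, as was also the case once probes lacking 1 array were let into the fit.

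**Figure D3:**
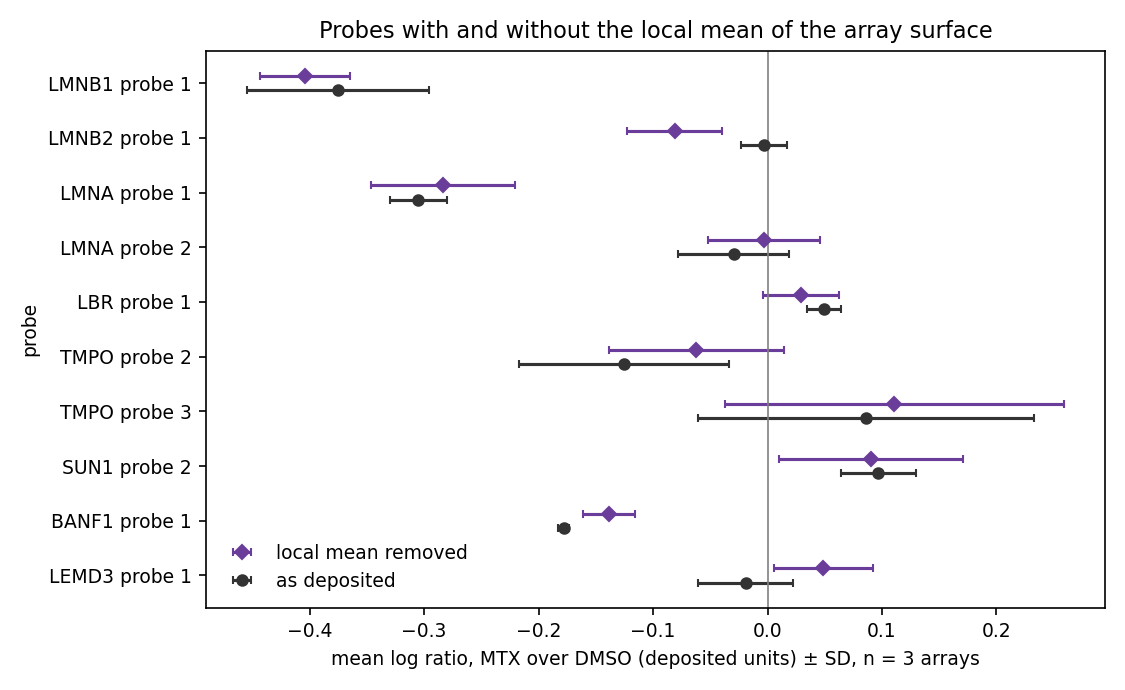
Mean log ratio ± SD over 3 arrays for the 10 complete probes, as deposited and after the mean of the surrounding spots was subtracted. LMNB1 and the first LMNA probe stay far below 0 both ways, whereas LMNB2 moves from -0.00315 to -0.0811 and LEMD3 from -0.0188 to 0.0489.

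The genes nearest to LMNB1 by distance over the 3 arrays are given as a description. This distance depends mainly on the level of the ratios, and LMNB1 was picked out for its low mean. Its nearest genes are therefore bound to be other genes with low means, and nothing is read from which they were. Of 9204 genes with a proper name outside the members, the nearest were MCM2, a subunit of the replicative helicase, and the serum amyloid gene SAA2, at Euclidean distances of 0.0310 and 0.0363, where the median gene lay at 0.679. MCM2 had -0.462, -0.407 and -0.268 on arrays 1, 2 and 3, and SAA2 had -0.435, -0.424 and -0.256. Both lay lower on arrays 1 and 2 than on array 3, as LMNB1 did. Genes this near to LMNB1 over the same arrays are bound to share that pattern, so nothing is read from it. Next came the nuclear receptor gene NR1D2 (0.0749), the ribosomal protein pseudogene RPL23AP53 (0.0947) and the torsin family gene TOR3A (0.0950), with means of -0.370, -0.347 and -0.330. SAA2 and RPL23AP53 have near-identical copies, and whether their probes tell these apart was not tested. Within the members BANF1 and LMNA were nearest to LMNB1, at 0.359 and 0.384, with 293 and 379 of the named genes nearer.

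Genes that act on lamins after translation were measured in part. Of 6 genes of lamin processing 5 were measured, 1 rose, 1 fell and 3 did not pass, with 16.6% of all genes higher and 12.4% lower. The median of the list was -0.00791. ZMPSTE24, the protease that matures prelamin A, had 0.139, 0.0847 and 0.119 on the arrays and rose by 0.114 ± 0.0276 (n = 3, limma adjusted p = 0.0249), or 1.30-fold. NARF, which binds prelamin A, had -0.0768, -0.0820 and -0.0748 and fell to -0.0779 ± 0.00377 (limma adjusted p = 0.0433). NARF lost its call when the first probe of each gene was used (adjusted p = 0.0522) and with probes on at least 2 arrays (adjusted p = 0.0765). The farnesyltransferase subunits FNTA and FNTB averaged 0.00619 ± 0.00708 and -0.115 ± 0.0996, and the methyltransferase ICMT -0.00791 ± 0.0379. FNTB was uneven, at -0.143, -0.197 and -0.00417. Of 3 caspases known to cut lamins, CASP6 was the one measured and did not pass, with a mean of 0.0388 ± 0.114 and with 0.134, 0.0695 and -0.0871 on the arrays.

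Of 16 other proteins of the nuclear membrane 6 were measured, and 1 fell, where 12.4% of all genes did. It was TMEM38A, a cation channel subunit, with -0.0799, -0.101 and -0.200 on the arrays and a mean of -0.127 ± 0.0640 (n = 3, limma adjusted p = 0.0407), and with probes on at least 2 arrays its adjusted p was 0.0693. The median of the list was 0.00176. Of 7 chromatin partners of the lamina 4 were measured and none passed by limma, where 29.0% of all genes did. At an unadjusted p under 0.05 there were 0 too, where 45.4% of all genes were. With 4 genes measured, this does not show that the partners were unchanged. The heterochromatin proteins CBX1, CBX3 and CBX5 averaged 0.0752 ± 0.0586, -0.0203 ± 0.0341 and 0.0441 ± 0.0360, and the tumour suppressor RB1 0.0315 ± 0.0874. Other probes of CBX1 read below 0, at -0.208 and -0.242 on arrays 2 and 3 for one and at -0.0418 and -0.167 on arrays 1 and 3 for the other, so its probes disagreed in sign. Calls in this list varied with the setting: the first probe gave CBX5 0.160 and RB1 0.148 (adjusted p = 0.0361 and 0.0194), and CBX1 passed at 0.0898 with the local mean removed (adjusted p = 0.0308). RB1 averaged -0.0157 with the local mean removed and -0.0346 with array weights, so no direction can be given for it.

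Of 31 nuclear pore genes 25 were measured, of which 6 rose, 2 fell and 17 did not pass, a share of 32.0% against the 29.0% of all genes. The list's median was 0.0416, against 0.00742 over all genes. NUP155, a scaffold subunit of the inner ring, had 0.171, 0.208 and 0.148 and rose by 0.176 ± 0.0304 (n = 3, limma adjusted p = 0.0123), or 1.50-fold. NUP133, of the outer ring, rose by 0.139 ± 0.00410 (adjusted p = 0.0141), and NUP153, of the nuclear basket, which also binds lamins, by 0.121 ± 0.0187 (adjusted p = 0.0200). NUP62, of the central channel, had the highest mean of the list and was named after its values were seen: 0.861 on array 1, -0.107 on array 2 and 0.0557 on array 3 gave 0.270 ± 0.518, and it did not pass (adjusted p = 0.335). The outer ring subunit SEH1L and the membrane anchor NDC1 fell to -0.0793 ± 0.0142 and -0.0904 ± 0.0250 (adjusted p = 0.0449 and 0.0391). Both lost the call with the local mean removed, at -0.0475 and -0.0609 (adjusted p = 0.140 and 0.0933), and with probes on at least 2 arrays (adjusted p = 0.0783 and 0.0791). The first probe of SEH1L gave -0.0633 (adjusted p = 0.142), and another, measured on array 2 alone, read 0.261.

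In nuclear import and export 18 of 26 genes were measured, 2 rose, 5 fell and 11 did not pass. This is a share of 38.9%, against 29.0% of all genes, of which 16.6% were higher and 12.4% lower, and the median was -0.0901, against 0.00742. IPO7, an import receptor for ribosomal proteins and histones, had -0.296, -0.297 and -0.364 and fell to -0.319 ± 0.0391 (n = 3, limma adjusted p = 0.00866), or 2.08-fold lower. With probes on at least 2 arrays it averaged -0.196 (adjusted p = 0.0953), since its other probe read 0.0395 and 0.103 on arrays 1 and 2. Of the alpha importins, which read the classical import signal, KPNA2 and KPNA4 rose by 0.165 ± 0.0226 and 0.178 ± 0.0327 (adjusted p = 0.0123 and 0.0124). The first probe of KPNA4 gave 0.0979. The alpha importins KPNA1, KPNA3 and KPNA6, named after their values were seen, did not pass. They averaged 0.0659 ± 0.0349, -0.110 ± 0.0686 and -0.0830 ± 0.116, so the family went both ways. XPO1, the main protein exporter, and XPOT, the exporter of transfer RNA, fell to -0.0917 ± 0.0205 and -0.0885 ± 0.0174 (adjusted p = 0.0353 and 0.0366). With probes on at least 2 arrays XPO1 averaged -0.0564 (adjusted p = 0.226) and XPOT -0.0840 (adjusted p = 0.124), and the first probe of XPOT gave -0.0332 (adjusted p = 0.314). The other genes that fell were KPNB1, the importin beta that carries the alpha importins, and the GTPase gene RAN, both named after their values were seen. They averaged -0.107 ± 0.0544 and -0.0952 ± 0.0391 (adjusted p = 0.0488 and 0.0456). The list had 3 calls higher and 0 lower with probes on at least 2 arrays, so none of the 5 falls kept its call there.

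Of 19 genes that take the envelope apart in mitosis or rebuild it, 16 were measured, 5 rose, 0 fell and 11 did not pass, a share of 31.2%. The share over all genes was 29.0%, so this list was close to it. By limma at an unadjusted p under 0.05, 9 were higher and 0 lower, where 25.3% of all genes were higher and 20.1% lower, and the median was 0.0718, against 0.00742 over all genes. CDK1, the mitotic kinase that phosphorylates lamins, had 0.155, 0.144 and 0.199 and rose by 0.166 ± 0.0291 (n = 3, adjusted p = 0.0133). CCNB1, the gene of cyclin B1, had the lowest mean of the list, -0.0467 ± 0.0424, and did not pass (adjusted p = 0.213). VRK2, of the kinase family that phosphorylates the BANF1 protein, and VPS4B, an ATPase of membrane sealing, rose by 0.104 ± 0.0322 and 0.112 ± 0.0219 (adjusted p = 0.0324 and 0.0237). VRK1, of the same family as VRK2, averaged -0.0167 ± 0.00846 and did not pass (adjusted p = 0.548). CCNB1 and VRK1 were named after their values were seen. With the local mean removed VRK2 averaged 0.0302 (adjusted p = 0.442) and VPS4B 0.0575 (adjusted p = 0.117), and VRK2 also missed the threshold with probes on at least 2 arrays (adjusted p = 0.0593).

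**Figure D4:**
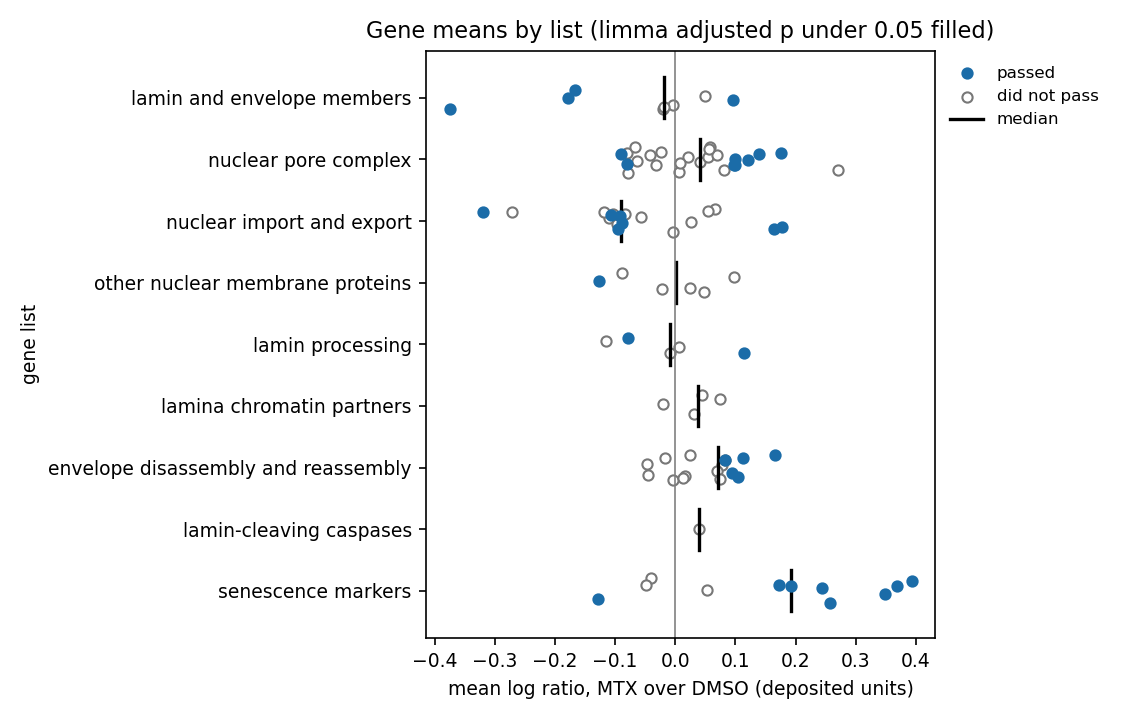
Mean log ratio over 3 arrays of each measured gene of the lamin and envelope set and of 8 lists, filled where limma's adjusted p was under 0.05, with a bar at each list's median. The import and export list has its median at -0.0901 and the senescence markers at 0.192, and the other lists lie near the 0.00742 of all genes or up to 0.0718.

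Markers of senescence, a state in which lamin B1 loss is well known, were set beside LMNB1 from a list written with several of their values known, so it is no independent evidence. Of 13 genes 11 were measured, 7 rose, 1 fell and 3 did not pass (72.7%, against 29.0% of all genes), with a median of 0.192. CDKN1A, the cell cycle inhibitor p21, had 0.467, 0.407 and 0.306 and rose by 0.393 ± 0.0814 (n = 3, limma adjusted p = 0.00971). CDKN1A was nearest to 0 on array 3, as LMNB1 was, but the markers that passed did not all share this. GDF15, CDKN2B and IL1A were nearest to 0 there too, and IL6 was nearest on array 2. MMP1, CXCL8 and HMGB1 were furthest from 0 on array 3. Of these, CDKN2B, IL1A, MMP1 and CXCL8 were named after their values were seen. Another probe of CDKN1A, measured on array 2 alone, read -0.0345 there. The secreted factors IL6 and GDF15 rose by 0.245 ± 0.0341 and 0.258 ± 0.0479 (adjusted p = 0.00971 and 0.0101). HMGB1, a chromatin protein that leaves the nucleus in senescent cells, had -0.125, -0.122 and -0.137 and fell to -0.128 ± 0.00803 (adjusted p = 0.0163), and its first of 5 probes gave -0.0824. These are RNA ratios, and where the HMGB1 protein lay was not measured. The 3 genes that did not pass were named after their values were seen. HMGB2, a relative of HMGB1, averaged 0.0521 ± 0.0231 (adjusted p = 0.126). It read 0.0286, 0.0531 and 0.0746, above 0 on every array, where HMGB1 was below 0 on every array. CDKN2A, the gene of the inhibitor p16, averaged -0.0404 ± 0.0137 (adjusted p = 0.186) and was below 0 on every array. GLB1, whose product is the senescence-associated galactosidase, had 0.174, -0.259 and -0.0606 on the arrays and averaged -0.0482 ± 0.217 (adjusted p = 0.679).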

How the data were processed

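Per the series' design text, arrays were read with GenePix 4.1, the local median background was subtracted and LOWESS normalisation was applied. The authors deposited 1 log ratio per probe and array, taken here as log10, which no source states. Genome build is not given in the sources used here.

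The 31615 probes were joined to the platform annotation, and 22444 Entrez identifiers were found in the RefSeq table, with 0 symbols changed. The 13027 probes with 1 symbol and values on 3 arrays were averaged per gene. Means were tested against 0 with limma 3.58.1 in R 4.3.3 (two-sided, Benjamini-Hochberg over 9394 genes), a procedure tested on simulated data. The local mean covers spots within 5 rows and columns, at an inferred 215 spots a row, own spot left out.

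Members, lists and alternatives were chosen with earlier results of these data known. Named were all members, the 5 genes nearest to LMNB1, and in each list the 3 called genes of smallest p per direction, or every measured gene in lists of up to 7. Intensities were not used, so neither the background nor a filter on dim spots could be changed. The number of arrays limits the precision.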

Additional observations from a re-analysis of the deposited data

How the results depend on the processing

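LMNB1 kept its sign and moved by less than its SD under all 12 alternatives, and its mean without 1 array ranged from -0.420 to -0.344. Not all of these could have moved it. LMNB1 had 1 probe, so the settings that select or combine probes were bound to leave its mean at -0.375. The robust spread model changes no mean either. Without array 1 or array 2 limma called 0 genes, members and listed genes included, with 2938 and 2387 at an unadjusted p under 0.05; without array 3 it called 4287. Leaving out 1 array, the median of the member means ran from -0.0340 to -0.0176, and calls from 0 to 8 for nuclear pore, import and export, envelope disassembly and senescence genes, from 0 to 3 for other membrane proteins and lamin processing, from 0 to 1 for caspases and at 0 for chromatin partners. Fewer arrays leave fewer degrees of freedom. With the first probe of each gene the median of the member means was -0.0720, and lamin processing had 1 call and chromatin partners 2. Probes on at least 2 arrays gave 1633 calls in all (limma), with 3 for the pore and 3 for import and export (3 higher, 0 lower). There were 0 for other membrane proteins, 1 for lamin processing and 2 for envelope disassembly. Array weights gave 5801 calls, with 18, 12, 4 and 11 in those lists other than lamin processing, and 2 for chromatin partners. Other membrane proteins had 2 calls with centred arrays and 2 with the local mean removed, which also gave chromatin partners 1. Single probes gave 5350 calls and no value for lists or for genes with several probes. The cause of these changes was not tested. Each log ratio already pairs MTX with DMSO on its array, so no further block could be fitted.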
